A study of Mus musculus with 15 samples.

Results

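Described here are 10 autosomal genes of separate functions in 5 mouse embryonic stem (ES) cell lines: Mapt, Fez1, Prtg, Smtnl1, Nnmt, B3glct (older symbol B3galtl), Npl, Lrrc2, Kyat3 (older symbol Ccbl2) and Pzp. They were chosen by their measured line means on these arrays, which separated 3 parthenogenetic lines from 2 fertilised lines, so the difference between the origins is the basis of the choice and is given as a description with no test. The 10 genes are 10 of the 18193 genes on the array and are represented by 16 of its 45101 probe sets. All 10 were among the 12813 genes that passed the filter on low values. RNA was hybridised to whole-genome Affymetrix mouse arrays, 3 per line and 15 in all, and levels are log2 intensities. Probe sets differ in how brightly they hybridise, so levels are compared between lines and never between genes.

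The parthenogenetic lines came from oocytes set dividing with no sperm, and both of their chromosome sets are therefore maternal. OpB6D2 was made from naturally ovulated oocytes of B6D2F1 females, the offspring of a C57BL6 female and a DBA2 male. FpB6D2 and FpB6CBA were made from oocytes grown in cultured preantral follicles of prepubertal females, of B6D2F1 in the first and of B6CBAF1 (C57BL6 by CBA/Ca) in the second. The fertilised lines were NmB6D2, from C57BL6 females mated with DBA2 males, and the purchased R1, whose background is a 129S1/SvImJ and 129X1/SvJ cross. Each line is 1 derivation, and the labels do not say that its 3 arrays came from separate cultures, so p-values measure only the spread between arrays. Origin was not the only difference between the groups: the Y-linked gene Eif2s3y had line means of 2.73 to 3.35 in the parthenogenetic lines, against 7.99 and 8.61 in the fertilised lines, so Y chromosome content and origin cannot be told apart. The number of X chromosomes was not measured, so it cannot be told apart from origin either. The X-linked gene Xist had line means of 4.5 to 4.9 over the 5 lines. All 5 lines carried the pluripotency factors Pou5f1 (line means 11.38 to 12.02), Sox2 (10.96 to 11.26) and Nanog (9.81 to 11.39). Arrays of 1 line correlated at 0.993 to 0.998 over all genes tested and arrays of different lines at 0.910 to 0.978.

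The 10 genes serve separate functions. Mapt encodes tau, which binds microtubules, and Fez1 an adaptor that links cargo to kinesin motors. Prtg encodes protogenin, a cell surface receptor related to DCC and neogenin that is known from early embryos. Smtnl1 encodes a smoothelin-like protein that acts on myosin phosphatase in muscle. Nnmt methylates nicotinamide with S-adenosylmethionine as donor, Kyat3 is an aminotransferase that converts kynurenine to kynurenic acid, and Npl cleaves sialic acid. B3glct adds glucose to O-linked fucose on thrombospondin repeats, Pzp is a secreted protease inhibitor of the alpha-2-macroglobulin family, and Lrrc2 is a leucine-rich repeat protein.

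Promoter sequences from RefSeq (GRCm38.p6), each of 250 bases before and 50 bases after an annotated start, were held for 8 of the 10 genes in 10 windows. CG dinucleotides, the sites of DNA methylation in mammals, ranged from 4 in the Pzp window to 35 in the Prtg window, against a median of 7 over all 32851 windows of this length. The windows of 3 genes are shown with every CG in capitals. The Prtg window (chr9:72807024-72807323, plus strand) belongs to the single gene that was lower in parthenogenetic lines, and 7% of all windows held as many CG. The Smtnl1 window (chr2:84822603-84822902, minus strand) held 11 and the Lrrc2 window (chr9:110951295-110951594, plus strand) held 9, and 41.4% and 45.8% of all windows held at least as many as each. The Smtnl1 window lies inside the annotated span of the gene (chr2:84811173-84826847), at an annotated start that is not the outermost. The Smtnl1 and Lrrc2 windows belong to the genes with the largest differences between parthenogenetic lines among those that were higher in them.
Prtg: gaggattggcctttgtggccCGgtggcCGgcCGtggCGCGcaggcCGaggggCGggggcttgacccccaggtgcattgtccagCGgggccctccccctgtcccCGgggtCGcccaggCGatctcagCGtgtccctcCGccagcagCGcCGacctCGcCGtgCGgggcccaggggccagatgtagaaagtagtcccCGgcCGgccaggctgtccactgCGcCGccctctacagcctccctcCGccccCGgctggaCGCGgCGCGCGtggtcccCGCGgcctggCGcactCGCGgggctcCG
Smtnl1: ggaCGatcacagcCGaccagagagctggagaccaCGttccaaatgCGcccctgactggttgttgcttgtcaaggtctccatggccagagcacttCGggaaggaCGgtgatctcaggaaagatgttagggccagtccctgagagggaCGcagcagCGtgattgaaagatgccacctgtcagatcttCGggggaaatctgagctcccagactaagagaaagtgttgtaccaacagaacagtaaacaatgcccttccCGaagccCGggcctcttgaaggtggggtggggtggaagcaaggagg
Lrrc2: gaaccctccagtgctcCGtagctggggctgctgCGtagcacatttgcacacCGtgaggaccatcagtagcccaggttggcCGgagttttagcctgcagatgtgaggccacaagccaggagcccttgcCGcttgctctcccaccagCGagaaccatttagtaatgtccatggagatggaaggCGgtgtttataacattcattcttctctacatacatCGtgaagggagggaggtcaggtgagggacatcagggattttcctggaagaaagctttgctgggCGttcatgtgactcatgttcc
On both strands, GGGCGG was in windows of Prtg and Fez1 and in 35.7% of all windows. TATAAA was in windows of Lrrc2 and Fez1 and in 13.6% of all windows. CACGTG, which reads the same on both strands, was in windows of Npl and Fez1 and in 7.2% of all windows. No motif was in more than 2 of the 8 genes. The Pzp window, with 4 CG, was poorer in CG than those of the other 7 genes, and 68.6% of all windows held at least as many.

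The gap of a gene is the distance in log2 units between the nearest line means of the origins, 1 from each. For the counts over all genes, line means were used as measured, also where they lay below the filter value. Line means separated the origins in all 10 genes by construction, against 2488 of the 12813 genes tested (19.4%), and in 9 they were higher in parthenogenetic lines (11.7% of all genes) and in 1, Prtg, lower (7.77%). The gap was at least 1 in all 10 and in 39 genes (0.304%) of all, with 30 genes higher (0.234%) and 9 lower (0.0702%). The median gap over the 2488 was 0.11. Of the 39 genes, 9 lay on the X chromosome, which held 3.24% of the genes tested, 1 on the Y chromosome and 29 on autosomes. By size of the gap, Prtg had rank 5 of all genes at 2.16, B3glct followed at 1.56 (rank 8), and Lrrc2 had the smallest gap of the 10 at 1.17 (rank 27).

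**Figure D1:**
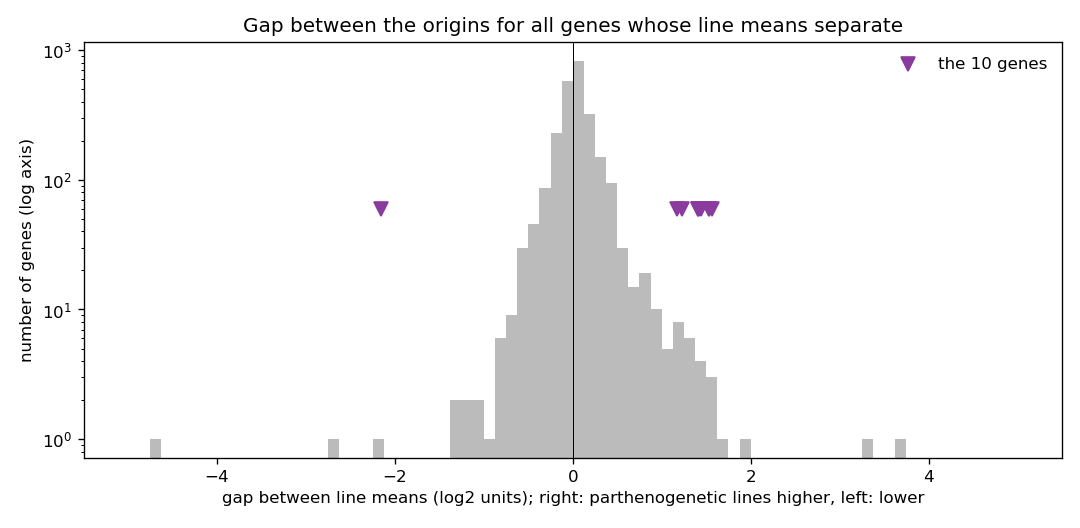
Number of genes (log axis) by gap between the line means of the origins, in log2 units, for all 2488 genes whose line means separate. Bars to the right are genes higher in parthenogenetic lines. The triangles mark the gaps of the 10 genes, 9 between 1.17 and 1.56 on the right and Prtg at 2.16 on the left, and their height carries no value.

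Prtg, the receptor gene, was the only one of the 10 that was lower in the parthenogenetic lines. Its log2 levels on the 3 arrays were 6.58, 6.42 and 6.46 in OpB6D2, 5.40, 5.69 and 5.62 in FpB6D2 and 6.97, 6.87 and 5.94 in FpB6CBA. In the fertilised lines they were 8.59, 8.73 and 8.94 in NmB6D2 and 9.38, 9.48 and 9.27 in R1. Every fertilised array lay above every parthenogenetic array, and FpB6CBA was the most uneven line (SD 0.57). The parthenogenetic mean of line means was 6.22 ± 0.56 (SD, n = 3 lines), against 9.06 ± 0.44 (n = 2 lines) in fertilised lines, a difference of -2.85 log2 units or 7.20-fold. In bulk RNA, fewer cells of a type and less RNA per cell cannot be told apart. Both other Prtg probe sets also separated the origins with no overlap of arrays. Probe set 1438410_at had line means of 5.63, 5.04 and 5.58 in OpB6D2, FpB6D2 and FpB6CBA, against 7.34 in NmB6D2 and 8.11 in R1. For 1438333_at the parthenogenetic line means, 2.72 to 3.02, lay below the filter value of 3.864 and the fertilised ones were 5.23 in NmB6D2 and 5.09 in R1. Prtg spans chr9:72807274-72917307.

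The cytoskeletal genes were higher in the parthenogenetic lines. Smtnl1 (chr2:84811173-84826847) had a difference of 2.92 log2 units or 7.55-fold between the means of line means, 7.71 ± 1.02 in parthenogenetic and 4.80 ± 0.37 in fertilised lines (SD over 3 and 2 lines). Array by array, it was at 8.61, 8.56 and 8.56 in OpB6D2, 8.06, 8.02 and 7.84 in FpB6D2 and 6.60, 6.78 and 6.38 in FpB6CBA. It was at 5.27, 4.88 and 5.01 in NmB6D2 and at 4.75, 4.60 and 4.25 in R1. The arrays of the 2 origins did not overlap, and within the parthenogenetic lines the level was lowest in FpB6CBA.

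Fez1 (chr9:36821398-36878926) was at 8.14, 8.35 and 8.13 in OpB6D2, 7.90, 7.99 and 7.94 in FpB6D2 and 7.49, 7.55 and 7.46 in FpB6CBA. Its fertilised levels were 6.08, 6.08 and 6.11 in NmB6D2 and 5.17, 5.17 and 5.32 in R1. The 5 lines took 5 separate levels with no shared array value between neighbours, OpB6D2 being the highest and R1 the lowest, and the origins differed by 2.23 log2 units (4.68-fold).

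Mapt (chr11:104229409-104332090), by its brightest probe set, ran from 7.80 to 8.58 with a median of 8.39 over the 9 parthenogenetic arrays, against 6.12 to 6.63 with a median of 6.45 over the 6 fertilised arrays. That is a difference of 1.83 log2 units (3.57-fold), and the fertilised lines sat together at 6.41 ± 0.13 in NmB6D2 and 6.39 ± 0.26 in R1 (SD, n = 3 arrays). The other 3 Mapt probe sets were dim, and arrays of the 2 origins overlapped in each. Probe set 1424718_at had a gap of 0.19. The fertilised line means of 1455028_at (3.73 in NmB6D2 and 3.81 in R1) and all line means of 1417885_at lay below the filter value, so no gap is given for them.

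**Figure D2:**
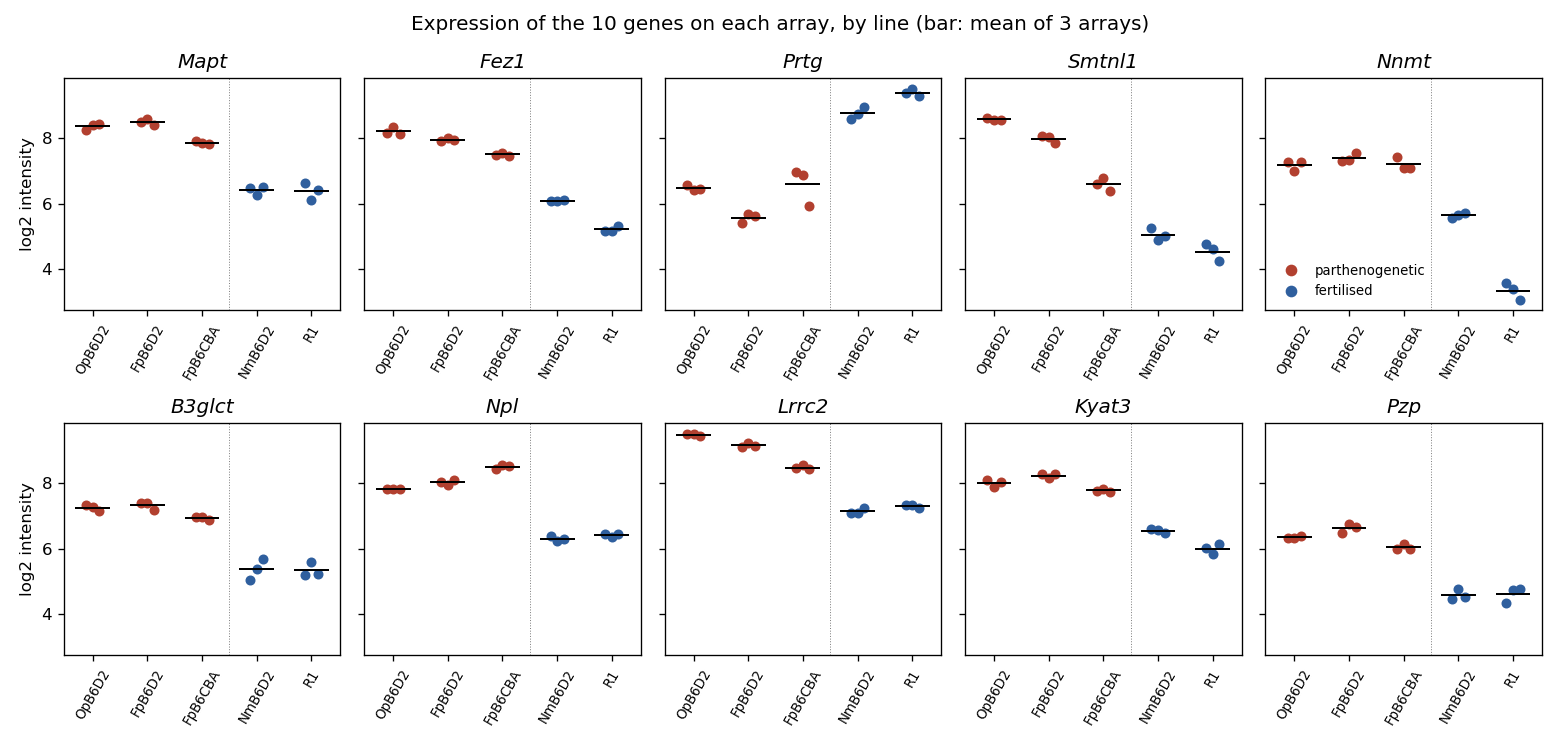
Log2 intensity of the 10 genes on each of the 15 arrays, by line, with a bar at the mean of the 3 arrays. The 3 parthenogenetic lines stand to the left of the dotted line and the fertilised lines NmB6D2 and R1 to the right. In all 10 panels, of genes chosen for separated line means, the arrays of the 2 origins do not overlap. Prtg is the only gene with the fertilised arrays on top.

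Among the metabolic enzymes, Nnmt (chr9:48538002-48607655) took nearly 1 level in the parthenogenetic lines and a separate level in each fertilised line. Its levels were 7.26, 7.00 and 7.27 in OpB6D2, 7.31, 7.32 and 7.54 in FpB6D2 and 7.41, 7.10 and 7.08 in FpB6CBA. In the fertilised lines they were 5.57, 5.65 and 5.73 in NmB6D2 and 3.57, 3.39 and 3.07 in R1. The R1 arrays were all below the filter value of 3.864, so the difference between the origins is given as at least 5.65-fold, and it was 1.61 log2 units without R1 and at least 3.39 without NmB6D2.

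Npl (chr1:153503016-153549714) was the one gene of the 9 higher ones with its highest level in FpB6CBA, at 8.41, 8.56 and 8.52, against 7.83, 7.83 and 7.82 in OpB6D2 and 8.03, 7.93 and 8.09 in FpB6D2. Its fertilised levels were close together, 6.37, 6.23 and 6.30 in NmB6D2 and 6.45, 6.34 and 6.45 in R1. The origins differed by 1.76 log2 units (3.38-fold), beside an SD of 0.35 between the parthenogenetic lines.

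Kyat3 (chr3:142701019-142744911) ran from 7.74 to 8.27 on parthenogenetic arrays, against 5.83 to 6.60 on fertilised arrays, a difference of 1.73 log2 units (3.31-fold). B3glct (chr5:149678100-149762599) ran from 6.88 to 7.39 on parthenogenetic arrays, against 5.05 to 5.68 on fertilised arrays, a difference of 1.81 (3.51-fold). Its line means were 7.24, 7.31 and 6.93 in OpB6D2, FpB6D2 and FpB6CBA, and 5.37 and 5.34 in NmB6D2 and R1. In B3glct the fertilised lines shared a range, whereas in Kyat3 the R1 arrays (5.83 to 6.14) all lay below the NmB6D2 arrays (6.47 to 6.60).

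Pzp (chr6:128483567-128526720), the secreted inhibitor, was at 6.33, 6.31 and 6.39 in OpB6D2, 6.49, 6.75 and 6.64 in FpB6D2 and 5.99, 6.13 and 5.99 in FpB6CBA. In NmB6D2 it was at 4.47, 4.76 and 4.53 and in R1 at 4.33, 4.73 and 4.78. The fertilised lines shared a range, and the origins differed by 1.74 log2 units (3.33-fold).

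Lrrc2 (chr9:110951545-110984066) is the gene whose probe sets disagreed. By its brightest probe set, 1453628_s_at, it was at 9.49, 9.49 and 9.44 in OpB6D2, 9.10, 9.22 and 9.13 in FpB6D2 and 8.45, 8.54 and 8.42 in FpB6CBA, against 7.08, 7.09 and 7.23 in NmB6D2 and 7.33, 7.32 and 7.25 in R1. The difference between the origins was 1.81 log2 units (3.52-fold). By 1427388_at the line means were 6.31 ± 0.20, 4.99 ± 0.20 and 3.92 ± 0.29 in OpB6D2, FpB6D2 and FpB6CBA, against 3.62 ± 0.29 in NmB6D2 and 4.37 ± 0.21 in R1 (SD, n = 3 arrays). There FpB6CBA lay below R1, so that Lrrc2 separated the origins by 1 of its 2 probe sets. The suffix of 1453628_s_at marks a probe set whose probes can match more than 1 transcript. Over the 10 genes, 15 of the 16 probe sets separated the line means, counting 1417885_at of Mapt below the filter value, and 12 had no overlap of arrays. The share of all probe sets that do so was not computed. The genes were chosen for separating the origins, so these counts are not read as a property of the 10.

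**Figure D3:**
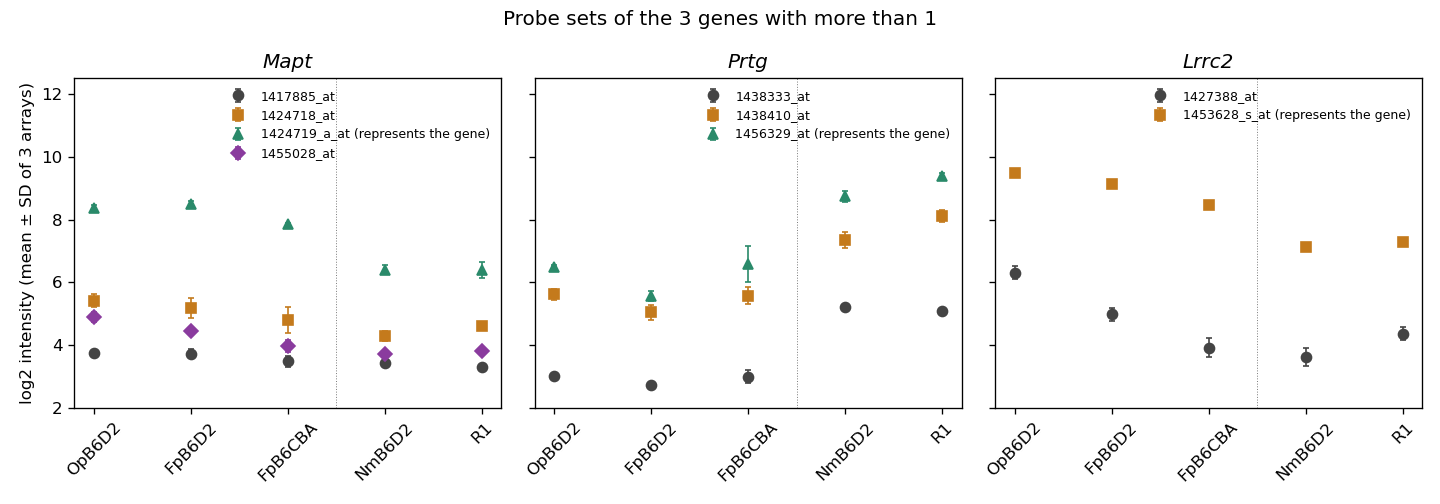
Log2 intensity (mean ± SD of 3 arrays) by line for every probe set of Mapt, Prtg and Lrrc2, with the 3 parthenogenetic lines left of the dotted line. The Prtg probe sets are all lower in parthenogenetic lines, the dim Mapt probe sets lie closer together, and Lrrc2 probe set 1427388_at is at 3.92 in FpB6CBA, below the 4.37 of R1.

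Differences between lines of the same origin were not used to choose the genes and were tested with limma over all genes, where a call needed a Benjamini-Hochberg adjusted p under 0.05 and a difference of 2-fold or more. The 3 comparisons among parthenogenetic lines share lines, so their values are not independent. Whether the choice by line means also made the lines of an origin more or less alike was not computed. The counts of calls are therefore not read as a property of the 10. Between FpB6D2 and OpB6D2, oocytes grown in culture and ovulated oocytes of 1 cross, 0 of the 10 were called (3.75% of all genes, 1.31% higher and 2.44% lower), although 7 of 10 had an adjusted p under 0.05 without the fold minimum (52% of all genes) and 7 an unadjusted p under 0.05. Between FpB6CBA and OpB6D2, 2 were called, both lower (4.97% of all genes lower, 10% in either direction). Between FpB6CBA and FpB6D2, 1 was called higher (6.03%) and 1 lower (5.14%), of 11.2% in either direction. Between R1 and NmB6D2, 1 was called, lower (5.49%, of 12.9% in either direction). The median difference of the 10 was 0.10, -0.31, -0.44 and -0.02 log2 units in these 4 comparisons in turn, against 0.02, 0.02, 0.00 and -0.04 over all genes tested. Regardless of direction, the median size was 0.24, 0.41, 0.54 and 0.34, against 0.24, 0.31, 0.30 and 0.32 over all genes.

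Smtnl1 fell in FpB6CBA against both other parthenogenetic lines, by 1.99 ± 0.13 log2 units against OpB6D2 (SE; 3.96-fold, limma adjusted p = 1.6e-08) and 2.61-fold against FpB6D2 (limma adjusted p = 5.23e-07). Its FpB6D2 level differed from OpB6D2 by -0.60 ± 0.13 (limma adjusted p = 0.00166), under the 2-fold minimum. The parthenogenetic levels of Smtnl1 thus spanned a range larger than the gap of 1.53 that separated FpB6CBA from the nearer fertilised line.

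Lrrc2 fell in FpB6CBA against OpB6D2 by 1.01 ± 0.06 log2 units (SE; 2.01-fold, limma adjusted p = 3.72e-09). The call stands at the fold minimum: the fold dropped under it when any of 4 arrays was left out, FpB6CBA unnumbered or 3 or OpB6D2 unnumbered or 4, with differences of -0.9997 to -0.98. Tested on its own among all probe sets, 1427388_at gave larger differences in the same direction, -2.39 ± 0.18 for FpB6CBA against OpB6D2 (limma adjusted p = 5.21e-08) and -1.32 ± 0.18 for FpB6D2 against OpB6D2 (limma adjusted p = 3.49e-05). Both Lrrc2 probe sets were thus highest in OpB6D2 and lowest of the parthenogenetic lines in FpB6CBA.

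Prtg was 1.02 ± 0.20 log2 units higher in FpB6CBA than in FpB6D2 (SE; 2.03-fold, limma adjusted p = 0.00048). Without the unnumbered FpB6CBA array the difference was 0.84, without FpB6CBA 1 it was 0.89 and without FpB6D2 1 it was 0.94, each under the fold minimum. Probe set 1438410_at gave 0.53 (limma adjusted p = 0.0126), also under the fold minimum, and 1438333_at lay below the filter value in both lines, so that it gives no difference between them.

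Nnmt was the one gene called between the fertilised lines, at least 3.44-fold lower in R1 than in NmB6D2 (fitted difference -2.30 ± 0.13, limma adjusted p = 1.51e-09). Among parthenogenetic lines its differences were 0.22 for FpB6D2 against OpB6D2 (limma adjusted p = 0.165), 0.02 for FpB6CBA against OpB6D2 (0.882) and -0.19 for FpB6CBA against FpB6D2 (0.203). Fez1 also differed between the fertilised lines, by -0.87 ± 0.07 (limma adjusted p = 4.11e-08), and Kyat3 by -0.54 (3.61e-05), both under the 2-fold minimum. Mapt, B3glct and Pzp differed between R1 and NmB6D2 by -0.02, -0.03 and 0.02 log2 units, with limma adjusted p of 0.897, 0.869 and 0.858.

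Npl differed in the other direction from most of the set, being 0.68 ± 0.06 higher in FpB6CBA than in OpB6D2 (limma adjusted p = 3.44e-07) and 0.48 higher than in FpB6D2 (8.91e-06). Of the 9 genes higher in parthenogenetic lines, 7 had their lowest parthenogenetic level in FpB6CBA. Of the 1493 genes that separated in that direction, 39.7% did so. All 9 had a gap of at least 1, as only 30 of the 1493 did, so the 2 sets are unlike. The share among those 30 was not computed, and the count of 7 is not read as a property of the 9. Other measures moved with FpB6CBA. Its arrays ran from 8.67 to 9.60 on the poly-A controls, against 7.96 to 8.31 in OpB6D2 and 8.32 to 8.44 in FpB6D2. On the hybridisation controls they ran from 9.32 to 10.05, above the 9.06 to 9.15 of OpB6D2 but spanning the 9.63 to 9.73 of FpB6D2. The 3' minus the 5' actin control was 0.66 to 0.76 per array in FpB6CBA, against 0.50 to 0.55 in OpB6D2 and 0.62 to 0.65 in FpB6D2. In FpB6CBA, 1 of 8 pluripotent cell markers, Nanog, was called lower against OpB6D2 (by 1.48 log2 units) and FpB6D2 (by 1.59), and 0 higher. Its 7 primitive endoderm markers averaged 6.29 to 6.50 per array, against 4.95 to 5.21 in OpB6D2 and 4.92 to 5.15 in FpB6D2, with 4 of 7 called higher against OpB6D2, and 6 higher and 1 lower against FpB6D2. Of the 7, 1 was below the filter value in OpB6D2 and in FpB6D2 and 0 in FpB6CBA. Its 8 trophectoderm markers averaged 6.81 to 6.93 per array, against 5.31 to 5.53 in OpB6D2 and 6.12 to 6.28 in FpB6D2, with 3 called higher and 0 lower against OpB6D2, and 3 higher and 1 lower against FpB6D2. The called keratins were 3.39 (Krt7), 3.34 (Krt18) and 3.22 (Krt8) log2 units higher than in OpB6D2. Of these 8 markers, 1 was below the filter value in FpB6CBA, against 2 in OpB6D2 and 1 in FpB6D2. Of all genes tested, 5.05% were called higher and 4.97% lower in FpB6CBA than in OpB6D2. Against FpB6D2 the shares were 6.03% higher and 5.14% lower. The part of these controls and markers in the levels of Smtnl1, Lrrc2, Prtg or Npl was not tested.

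**Figure D4:**
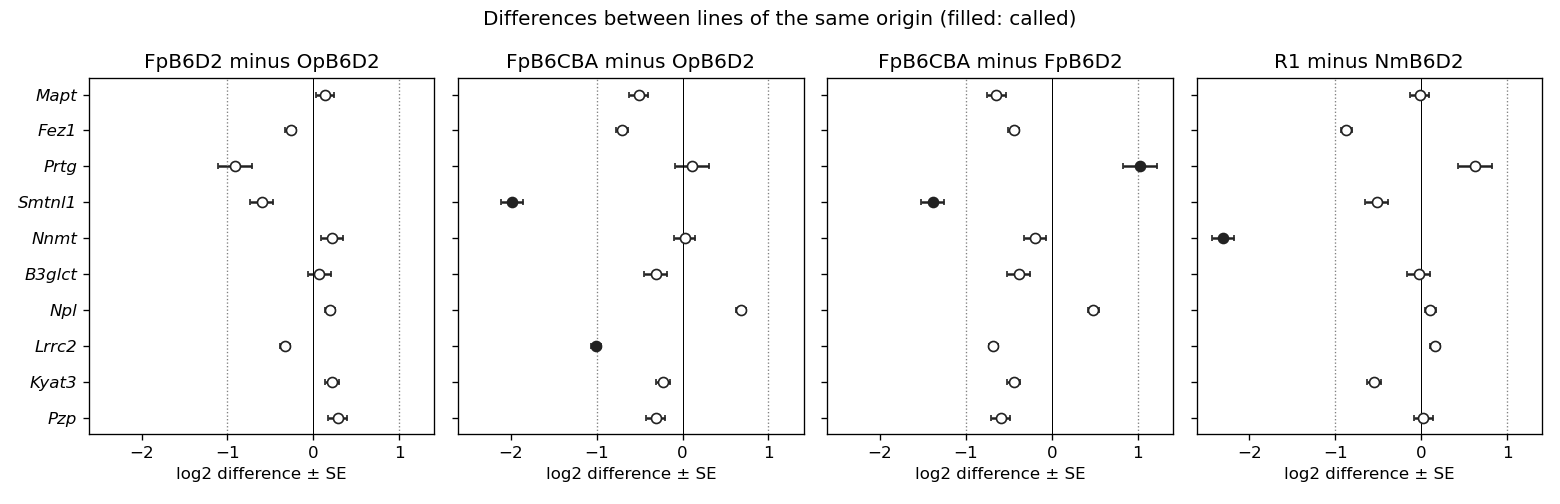
Log2 difference ± SE of the 10 genes in the 4 comparisons between lines of the same origin, from the limma fit over all genes, with dotted lines at a 2-fold difference. Filled points are called: Smtnl1 and Lrrc2 lower in FpB6CBA than in OpB6D2, Smtnl1 lower and Prtg higher in FpB6CBA than in FpB6D2, and Nnmt lower in R1 than in NmB6D2.

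The fertilised lines also differed in the markers of other cells. Of all genes tested, 7.39% were called higher and 5.49% lower in R1 than in NmB6D2. The 16 fibroblast markers averaged 7.30 to 7.38 per array in R1, against 6.18 to 6.32 in NmB6D2, with 9 of 15 tested called higher in R1 and 0 lower, and 1 of the 16 below the filter value in each line. In the parthenogenetic lines they averaged 6.66 to 7.13. The 6 mesoderm and muscle markers averaged 6.01 to 6.11 per array in R1, against 3.96 to 4.03 in NmB6D2, with 3 of 4 tested called higher (Mesp1, Actc1 and Mixl1), and 2 below the filter value in R1 and 4 in NmB6D2. The 7 primitive endoderm markers averaged 5.79 to 5.96 in R1, against 4.78 to 5.07 in NmB6D2, with 4 called higher and 1 lower and 1 below the filter value in each line. The 8 trophectoderm markers averaged 6.44 to 6.65 in R1, against 7.63 to 7.73 in NmB6D2, with 1 called higher (Eomes) and 3 lower (Elf5, Krt7 and Hand1), and 1 below the filter value in R1 and 0 in NmB6D2. Neural markers, relevant to Mapt and Fez1, averaged 4.25 to 4.52 per array in the parthenogenetic lines and 4.27 to 4.36 in the fertilised lines, with 4 or 5 of the 9 below the filter value in parthenogenetic lines and 6 in fertilised lines. The part of these markers in the Nnmt, Mapt or Fez1 levels was not tested.

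The genes most like the 10 in pattern were named by Pearson's r over the 15 arrays, the 2 highest for each, as a description over arrays that share lines. Since the 10 genes were chosen for separating the origins, the genes closest to them over the same arrays tend to separate them too. Of these 20 entries, 9 were X-linked, holding 5 distinct genes, where the X chromosome held 3.24% of the genes tested. Nothing is read from that share of entries. Fmr1nb and Efhc2 came first and second for Mapt (r = 0.989 and 0.982). Ezhip, an inhibitor of Polycomb repressive complex 2, came first for Fez1 and for Kyat3 (r = 0.991 in both), and Pnma5 second for Fez1 (0.987). Smtnl1 was closest to the autosomal Ak7 and the X-linked 1700013H16Rik (0.982 each), and Lrrc2 to 1700013H16Rik (0.982) and to Smtnl1 (0.981). Npl was closest to Oas1a (0.993) and Grasp (0.987), Nnmt to 2210016F16Rik (0.990) and Trappc2l (0.982), and Prtg to Efna2 and Agrn (0.971 each). Pzp was closest to Efhc2 and Fmr1nb (0.985 each), and B3glct to Mcts2 (0.981) and to Pzp (0.978). Levels of Ezhip were 6.98, 7.01 and 6.64 in OpB6D2, FpB6D2 and FpB6CBA, against 5.53 in NmB6D2 and 4.91 in R1. Between the genes themselves, r ran from 0.768 for Smtnl1 with Npl to 0.981 among the 9 higher ones, and from -0.976 (Kyat3) to -0.894 (Npl) for each of them with Prtg.

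The 10 genes lay on 7 chromosomes, and 4 of them, Fez1, Nnmt, Prtg and Lrrc2, on chromosome 9, which held 5.67% of the genes tested. On chromosome 9, 142 of 727 genes separated (19.5%), close to the 19.4% of all genes, and its 4 genes with a gap of at least 1 were these 4. Of the 20 nearest tested neighbours, 1 on either side of each gene and 174 to 356019 bases away, 5 separated the origins (25%). Ube2l6, a ubiquitin-conjugating enzyme 1170 bases from Smtnl1, was higher in parthenogenetic lines. Its line means were 4.70, 5.08 and 4.90 in OpB6D2, FpB6D2 and FpB6CBA, against 3.45 in NmB6D2 and 3.31 in R1. Both fertilised means lay below the filter value of 3.864, so no gap is given for Ube2l6. On the other side of Smtnl1, Timm10, 174 bases away, overlapped between the origins at 9.57, 9.99 and 9.24, against 8.78 in NmB6D2 and 9.32 in R1. Gbp2, an interferon-induced GTPase 63011 bases from Kyat3, went the other way from Kyat3. It was at 3.28, 3.87 and 4.33 in OpB6D2, FpB6D2 and FpB6CBA, against 5.42 in NmB6D2 and 8.68 in R1. The OpB6D2 mean lay below the filter value. The other 3 that separated, Crhr1, Rgs16 and Lrrfip2, had gaps of 0.09, 0.11 and 0.02. Tdgf1, a pluripotency gene 5387 bases from Lrrc2, overlapped, with 12.06, 11.74 and 12.23 in OpB6D2, FpB6D2 and FpB6CBA, against 12.54 in NmB6D2 and 11.70 in R1.

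Other genes of the pathways that the 10 belong to were taken from 8 lists, of which 100 of 139 genes were tested. Of these, 11 separated the origins in the direction of higher in parthenogenetic lines (11%, against 11.7% of all genes) and 9 lower (9%, against 7.77%). The lists therefore separated the origins about as often as genes at large, and none of their genes had a gap of at least 1. Between FpB6D2 and OpB6D2 3% were called and between FpB6CBA and OpB6D2 13%, against 3.75% and 10% of all genes. Between FpB6CBA and FpB6D2 11% were called and between R1 and NmB6D2 22%, against 11.2% and 12.9% of all genes. By direction, 7.39% of all genes were called higher and 5.49% lower in R1 than in NmB6D2.

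In nicotinamide and methyl donor metabolism, around Nnmt, 17 of 24 genes were tested, and 4 fell and 0 rose in R1 against NmB6D2. The list's median there was -0.20, against -0.04 over all genes. Naprt, which starts nicotinate salvage, fell by 1.84 ± 0.06 (SE, limma adjusted p = 6.08e-12), and Nampt, which salvages nicotinamide, by 1.21. Gnmt, a methyltransferase that consumes S-adenosylmethionine, fell by 1.59. Nmrk1, a nicotinamide riboside kinase, fell by 1.58. In FpB6CBA against FpB6D2, 2 rose and 2 fell, with Nampt at 1.41 and the NAD-dependent deacetylase Sirt1 at -1.68, at a median of 0.16. Only Mtr (higher) and Mat2b (lower) separated the origins. In the kynurenine pathway, around Kyat3, 5 of 12 genes were tested and the single call in the 4 comparisons was the paralogue Kyat1, at 3.96 in R1, against 5.44 in NmB6D2 (limma adjusted p = 3.65e-08).

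In sialic acid metabolism, around Npl, 12 of 14 genes were tested and 3 separated the origins, Nans, Nanp and Neu3, all higher in parthenogenetic lines. Their nearest line means were close, 9.14 in OpB6D2 and 9.09 in R1 for Nans and 8.11 in FpB6CBA and 8.05 in R1 for Nanp. For Neu3 they were 3.94 in FpB6D2 and 3.92 in NmB6D2. Nans and Nanp act in sialic acid synthesis and Neu3 is a sialidase. The lysosomal sialidase Neu1 rose in FpB6CBA by 2.30 ± 0.08 against FpB6D2 (SE, limma adjusted p = 1.73e-11) and by 1.44 against OpB6D2, and fell by 1.15 in R1 against NmB6D2. The O-fucose enzymes and thrombospondin repeat proteins, around B3glct, had 17 of 22 genes tested, with 4 higher and 0 lower in R1 against NmB6D2, at a median of 0.25. They were the fucose salvage enzyme Fpgt (1.67), the protease Adamts4 (1.23), Thbs1 (1.22) and the O-fucosyltransferase Pofut1 (1.12).

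Of 24 tested genes for microtubule-associated and kinesin-1 proteins, around Mapt and Fez1, 2 separated as higher (Map6, Stmn2) and 2 as lower (Map1b, Mark2) in parthenogenetic lines. Map1a, which binds microtubules as tau does, fell in both follicle-derived lines against OpB6D2, with differences of -1.16 in FpB6D2 and -1.34 in FpB6CBA (limma adjusted p = 1.95e-07 and 1.35e-08). Between R1 and NmB6D2 the kinesin heavy chain Kif5c rose by 1.56, and Map7 fell by 1.71. Among 10 tested DCC and neogenin receptors and ligands, around Prtg, 3 rose and 0 fell in R1 against NmB6D2: netrin Ntn1 by 1.51, Rgmb by 1.06 and the receptor gene Igdcc4 by 1.04. Prtg itself was 0.63 ± 0.20 higher in R1 (SE, limma adjusted p = 0.0142), under the fold minimum. Of 11 tested smoothelin and myosin phosphatase genes, around Smtnl1, 3 rose in R1 against NmB6D2, Smtn by 2.08, Cnn1 by 1.36 and Tpm1 by 1.18. The relative Smtnl2 rose in FpB6CBA, by 1.92 ± 0.07 against FpB6D2 (SE, limma adjusted p = 3.11e-11) and by 1.50 against OpB6D2, the comparisons in which Smtnl1 fell. In the alpha-2-macroglobulin family and its receptor, around Pzp, 4 of 11 genes were tested and 0 separated the origins. A2m rose in FpB6D2 by 1.22 and in FpB6CBA by 1.56 against OpB6D2, and by 1.15 in R1 against NmB6D2.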

How the data were processed

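Log2 intensities of 45101 probe sets on 15 arrays were deposited by the authors and made with RMA in the affy package, per the submitters' processing notes, which give no version. No source states the base of the logarithm, and log2 was taken from the range of 1.99 to 13.96. RMA normalises between arrays, so a shift common to all genes would not show. Scanner files were not used here, and the number of arrays limits the precision.

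Probe sets were joined to genes by the array annotation (34945 had 1 symbol, 932 several, 9160 none, 64 were controls), with symbols and GRCm38.p6 coordinates from a RefSeq gene table. A gene was its 1-symbol probe set with the highest mean, and was tested when at least 3 arrays reached 3.864, the median of all values, which removed 5380 genes. One limma fit (limma 3.58.1, R 4.3.3) gave 5 line means with empirical Bayes moderation, and p-values were adjusted by Benjamini-Hochberg over the 12813 genes. Where a line mean lay below the filter value, the fold is a lower bound against that value. Origins were compared by line means, without a test.

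The 10 genes and all lists were chosen with earlier results of these data known. Named genes were the 10, the 2 genes closest to each in pattern, the tested neighbours on the chromosome and up to 4 called genes of a list. Other filters, probe set rules, normalisations, variance models, fits, thresholds and a block on replicate number were tried, and each array and line was left out in turn. The fit was tested on simulated data. Plots were drawn with matplotlib 3.10.9.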

Additional observations from a re-analysis of the deposited data

How the results depend on the processing

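The values rest on 5 lines of 1 derivation each, so line, strain, Y chromosome content and origin vary together, and dim probe sets such as Nnmt in R1 give only a bound. Of 1080 alternative values of the 10 genes within an origin, 1015 kept direction and call, 26 reversed, 27 gained a call and 12 lost one. Of 260 alternative values between origins, 256 moved by less than the spread of lines. The cause of the changes below was not tested, except that adjusted p alone drops the fold minimum and that testing every probe set adds features.

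The separation of origins was recomputed under 26 alternatives, namely other filters, probe set rules and normalisations, and each line or array left out. All 10 genes separated in 25 of them and 9 without x and s probe sets, where Lrrc2 did not (origin difference at least 0.95). No line or array left out could undo the separation, because arrays of the origins did not overlap in any of the 10. The filters left the values of the 10 unchanged. The count of 25 is therefore not read as support. With probe sets averaged, the Mapt origin difference was 0.87. The Nnmt difference was at least 3.39 without NmB6D2 and 1.61 without R1.

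Comparison 1 is FpB6D2 against OpB6D2, 2 is FpB6CBA against OpB6D2, 3 is FpB6CBA against FpB6D2 and 4 is R1 against NmB6D2, and counts are given in that order. Testing every probe set called 997, 2409, 2461 and 3105, and adjusted p alone called 6663, 8037, 7725 and 8058 genes, with 7, 7, 9 and 6 of the 10. Averaged probe sets called 299 genes in comparison 1, and 1 of the 10 in comparison 3 (998 of all genes). They turned Mapt to -0.15 in comparison 1 and 0.0685 in comparison 4. Without x and s probe sets, 1 of the 10 was called in comparison 1. Quantile normalisation called 1 of the 10 in comparison 3 (1415 of all genes) and turned Pzp to -7e-04 in comparison 4. Median centring turned Mapt to 5e-04 in comparison 4.

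Within an origin, arrays of different lines with the same number in the titles correlated at 0.007 to 0.127 in their deviations from the line means. With different numbers they correlated at -0.096 to 0.134. No 2 lines shared 3 numbers, and the few pairs cannot settle whether the numbers pair the arrays, so the fit used no block. With the replicate block on the 13 numbered arrays, 574, 1449, 1434 and 1688 genes were called, and 1, 2, 1 and 1 of the 10. It turned Mapt to -0.19 in comparison 1 and 0.0566 in comparison 4, Prtg to -0.19, Nnmt to -0.21 and Pzp to 0.10 in comparison 2, and Pzp to -0.0871 in comparison 4. The same 13 arrays without the block, chosen after seeing the data, called 492, 1338, 1437 and 1651 genes and 1 of the 10 in each of comparisons 2 and 3, and turned Prtg to -0.0308 and Nnmt to -0.0399 in comparison 2.

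Leaving out each array in turn gave 1 to 2 called of the 10 in comparisons 2 and 3. Of all genes it called 1270 to 1315 in comparison 2 and 1417 to 1470 in comparison 3. Differences near 0 changed sign: Prtg ran from -0.0772 to 0.44 and Nnmt from -0.0819 to 0.0812 in comparison 2, and in comparison 4 Mapt ran from -0.14 to 0.12, Pzp from -0.0572 to 0.17 and B3glct from -0.19 to 0.13.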

Other observations

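Another 19 autosomal genes had a gap of at least 1 log2 unit between the line means of the origins. The following were named after their values were seen and carry no test. The histidine-degrading enzyme Hal was at 7.03, 5.98 and 6.13 in OpB6D2, FpB6D2 and FpB6CBA, against 4.67 in NmB6D2 and 3.72 in R1. The R1 mean of Hal lay below the filter value. The arginine methyltransferase Prmt8 had 1 level in the parthenogenetic lines, 6.85, 6.86 and 6.83, and 1 in the fertilised lines, 5.55 in NmB6D2 and 5.58 in R1. The germ cell RNA-binding protein Dazl was at 9.70, 9.54 and 9.44 in the parthenogenetic lines in the same order, against 6.50 in NmB6D2 and 8.34 in R1. The secreted neuropeptide precursor Vgf was lower in parthenogenetic lines, at 4.45, 4.68 and 4.72, against 5.88 in NmB6D2 and 7.32 in R1.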
